A study of Mus musculus with 48 samples.

Results

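The serotonin receptor genes described here are Htr1a, Htr1b, Htr1d, Htr2a, Htr2c, Htr4, Htr6 and Htr7, taken by their symbols from the gene table. They are 8 of its 23420 genes. Each had at least 161 counts in every mouse, so 8 of 8 passed the filter on low counts and were tested. RNA came from the striatum of mice aged about 50 days. One group held 8 mice of the 112kb congenic line, and the other 8 B6 wild-type littermates of the C57BL/6J strain, with 4 males and 4 females in each. Tissue punches of 3 mm from both hemispheres were pooled within a mouse, so each mouse gave a single RNA sample. As background, the line carries DBA/2J sequence in a segment of chromosome 11 with the genes Rufy1 and Hnrnph1, whose product is an RNA-binding protein of splicing. None of the 8 receptor genes lies on chromosome 11. The labels name no drug treatment. The title of the series asks about splicing, and the genotype contrast is its comparison.

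Serotonin reaches the striatum through axons of raphe neurons in the brainstem, and the receptor types differ in how they couple to the cell. Receptors of the Htr1 family couple to Gi and Go proteins and lower cyclic AMP. Htr2a and Htr2c couple to Gq and raise intracellular calcium through phospholipase C, whereas Htr4, Htr6 and Htr7 couple to Gs and raise cyclic AMP. In rodents, Htr1b protein is known from the terminals of medium spiny neurons, the projection neurons that make up most of the striatum.

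Gene counts summed over the 3 lanes of a mouse came to between 73125051 and 81994255. Levels are given in CPM, the count of a gene scaled to the library total. The punches carried high levels of medium spiny neuron markers: Ppp1r1b averaged 1965 CPM (counts-per-million), Drd1a 292 CPM and Drd2 222 CPM over 16 mice. Markers of the choroid plexus summed to 17.2 to 43.0 CPM per mouse, and markers of cortical excitatory neurons to 58.6 to 287 CPM. A wild-type mouse labelled female, named Sample_4806 in the count tables, stood apart in the sex-linked genes. Its Xist level was 2.73 CPM, against 958 to 1535 CPM in the other 7 females, and its level of the Y-linked gene Ddx3y was 0.0655 CPM, against 61.9 to 93.9 CPM in males. The sex tests of the receptor genes, the marker lists and the exon bins were therefore run without this mouse too. In bulk tissue, fewer cells of a type and less RNA per cell cannot be told apart.

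Several stretches of DNA are shown for genes named in the results that follow. Their part in those results was not tested. The first are the promoters of Htr1b, the receptor that differed by sex, and of Htr2a, whose level followed that of Htr1b over the mice. The RefSeq windows on GRCm38.p6 run from 250 bases before to 50 bases after the annotated start, and the bases after the start are in capitals. The Htr1b window is chr9:81633783-81634082 on the minus strand, and the Htr2a window is chr14:74640624-74640923 on the plus strand.
Htr1b: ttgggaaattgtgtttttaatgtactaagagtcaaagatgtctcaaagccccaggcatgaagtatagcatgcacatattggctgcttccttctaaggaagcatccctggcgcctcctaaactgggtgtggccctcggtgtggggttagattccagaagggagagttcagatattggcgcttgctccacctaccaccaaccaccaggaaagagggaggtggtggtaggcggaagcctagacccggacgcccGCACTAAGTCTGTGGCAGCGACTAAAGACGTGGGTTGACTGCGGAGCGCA
Htr2a: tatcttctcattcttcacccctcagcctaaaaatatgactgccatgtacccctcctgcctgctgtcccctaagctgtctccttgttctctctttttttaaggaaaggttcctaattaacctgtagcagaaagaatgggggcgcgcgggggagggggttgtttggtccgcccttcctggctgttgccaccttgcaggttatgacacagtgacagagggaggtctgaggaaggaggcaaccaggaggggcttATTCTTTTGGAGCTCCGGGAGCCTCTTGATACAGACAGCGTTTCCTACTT
The table of promoters held 7 of the 8 genes, with 2 starts each for Htr1d and Htr6, and none for Htr4. The Htr1b window had 53.3% G and C and the Htr2a window 52.0%. Both strands of the windows were searched for the letters of the sites bound by factors of the activity-regulated programme. The cyclic AMP response element TGACGTCA, found in 1.79% of 32851 promoters of the same length, was in none of the receptor windows. The AP-1 letters TGANTCA, with any base at N, were found in 7.81% of promoters. They matched in the window of Htr2c alone, as TGAATCA. The EGR letters GCGNGGGCG, found in 5.55%, matched in the window of Htr7 alone.

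Htr1d is shown with both of its annotated starts, because the exon counts differed between them. Both windows lie on the plus strand of chromosome 4 on GRCm38.p6, at chr4:136423274-136423573 and chr4:136424362-136424661, with the bases after the start in capitals.
Htr1d upstream start: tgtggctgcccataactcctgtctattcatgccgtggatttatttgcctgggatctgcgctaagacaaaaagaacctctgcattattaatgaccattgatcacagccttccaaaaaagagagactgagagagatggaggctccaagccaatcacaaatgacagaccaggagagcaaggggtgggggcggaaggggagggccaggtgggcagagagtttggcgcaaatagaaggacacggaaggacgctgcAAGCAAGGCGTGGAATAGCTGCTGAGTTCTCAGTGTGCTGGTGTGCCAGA
Htr1d downstream start: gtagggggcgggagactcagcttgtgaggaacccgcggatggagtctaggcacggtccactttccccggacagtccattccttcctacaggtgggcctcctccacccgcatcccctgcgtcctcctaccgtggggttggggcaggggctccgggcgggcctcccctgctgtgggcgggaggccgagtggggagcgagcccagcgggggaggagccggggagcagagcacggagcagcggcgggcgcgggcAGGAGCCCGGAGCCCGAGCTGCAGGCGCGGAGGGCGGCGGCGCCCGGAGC
The upstream window had 52.0% and the downstream window 74.3% G and C.

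Htr2c is shown by the coding exon that has an alternative 5′ splice site, chrX:143604113-143604313 on the plus strand of NCBIM37 (mm9). The capitals mark the 95 bases that are spliced out when the proximal site is used. They open with the letters GT of that splice site. As background, transcripts that lack this stretch encode a truncated receptor, and the same stretch holds the adenosines that ADAR enzymes edit.
Htr2c exon: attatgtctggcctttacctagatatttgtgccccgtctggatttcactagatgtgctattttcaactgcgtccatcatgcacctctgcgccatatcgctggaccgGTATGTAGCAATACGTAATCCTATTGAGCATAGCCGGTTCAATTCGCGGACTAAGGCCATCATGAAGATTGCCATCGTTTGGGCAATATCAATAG

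Htr2c had the highest level of the 8 genes per length of exon. Levels between genes are given as exon-bin CPM per kb of exon, a bin being a stretch of exon with a constant set of overlapping transcripts. Bin counts were scaled to the gene-table total of each mouse, not to its larger exon-bin total. On this scale Htr2c stood at 7.71 ± 0.657 (SD, n = 16 mice, range 6.66 to 9.09). Htr6, a Gs-coupled receptor, followed at 5.02 ± 0.539 (range 4.13 to 5.93). The range of Htr2c lay wholly above that of Htr6, with a ratio of means of 1.54, and Htr2c was the higher in 16 of 16 mice.

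The Gi-coupled receptors Htr1d and Htr1b came next in this per-kb order. Htr1d stood at 4.45 ± 0.381 (range 3.90 to 5.27) and Htr1b at 4.27 ± 0.981 (range 2.78 to 5.63). Htr6 was above Htr1d in 15 of 16 mice, with a ratio of 1.13. Htr1d and Htr1b did not differ beyond their spread: Htr1d was the higher in 9 of 16 mice, with a ratio of 1.04. Htr2a, a Gq-coupled receptor best known from cortical neurons, stood at 3.34 ± 0.675 (range 2.26 to 4.44) and was below Htr1b in 15 of 16 mice.

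Htr7, Htr4 and Htr1a had the lowest levels per kb. Htr7, a Gs-coupled receptor, stood at 1.58 ± 0.546 (range 0.765 to 2.62), and Htr2a was above it in 16 of 16 mice with a ratio of 2.12. Htr4, which also couples to Gs, stood at 0.997 ± 0.133 (range 0.743 to 1.32) and was below Htr7 in 14 of 16 mice. Htr1a, the autoreceptor of raphe neurons and a receptor of forebrain neurons too, stood at 0.989 ± 0.352 (range 0.515 to 1.58). Htr4 was above Htr1a in 9 of 16 mice, with a ratio of 1.01, so this last pair did not differ beyond its spread.

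The gap between Htr2c and the rest depended on which exons were counted. The exon length of Htr2c includes bins with almost no counts, such as bin 7 of 2212 bases with a mean of 5.56 counts. Over the longest coding bin of each gene, Htr2c stood at 14.2 ± 1.23 CPM per kb and Htr6 at 4.66, a ratio of 3.05. Reads that span several bins were counted in each. For Htr6 the bin counts summed to 2.002 times the gene count. This ratio was 1.32 for Htr7 with 16 bins, 1.16 for Htr1d with 9 and 1.15 for Htr2c with 19. It was 1.15 for Htr4 with 7 bins and 1.07 for Htr2a with 3. Bins 1, 5 and 6 of Htr6, annotated in Htr6-001 only, held means of 105, 222 and 73.4 counts. The cause of the high Htr6 ratio was not tested. For Htr1b the ratio was 0.439. Its annotated exon on NCBIM37 is 1273 bases long, and the RefSeq start of Htr1b lies 1217 bases upstream of that exon. Gene-table counts over that short length would place Htr1b first at 9.73 per kb and Htr2c next at 6.69. On the same gene-table scale Htr1d stood at 3.83, Htr2a at 3.13 and Htr6 below them at 2.51. The place of Htr6 next to Htr2c thus held with bin counts and not with gene-table counts.

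**Figure D1:**
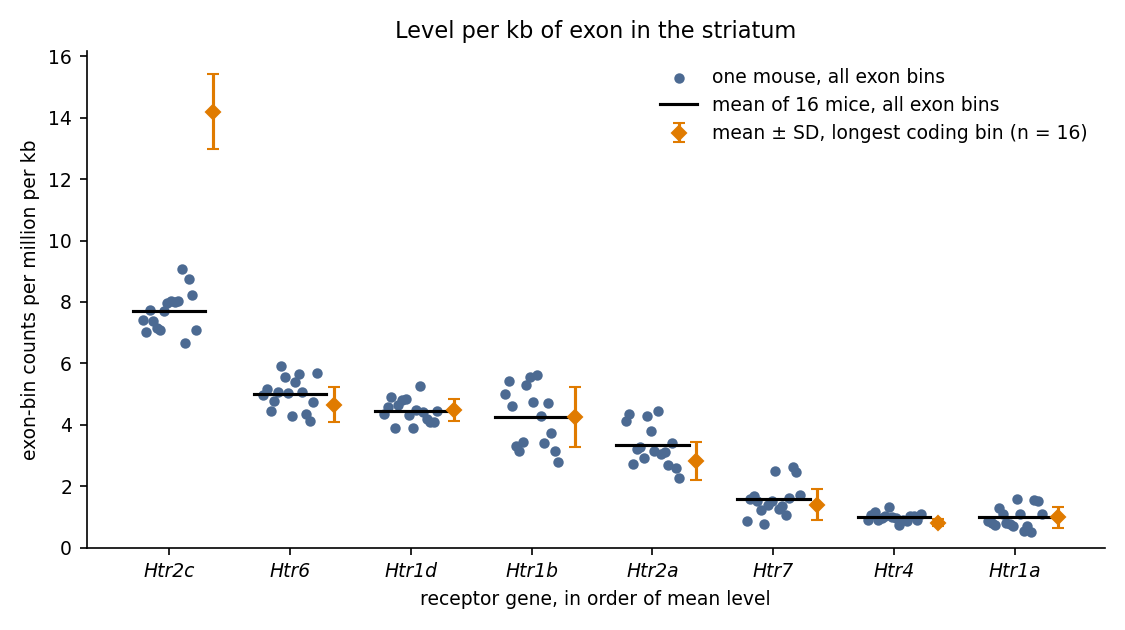
Exon-bin CPM per kb of exon for the 8 receptor genes, in order of their mean; each blue point is a mouse, the black line is the mean of 16 mice and the orange diamond is the mean ± SD over the longest coding bin. The points of Htr2c all lie above those of Htr6, while Htr1d and Htr1b, and Htr4 and Htr1a, overlap.

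In CPM of the gene table, which is not corrected for length, Htr2c took 54.4 ± 2.86% (SD, n = 16) of the counts of the 8 genes together. Htr1b took 10.8%, Htr1d 10.7% and Htr2a 8.08%. The remaining 4 genes each took between 3.52% and 5.13%. Htr2c thus held most of the counts of these receptors.

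The receptors fell into a variable and a steady set across the 16 mice. The coefficient of variation of CPM was 35.6% for Htr1a, 34.1% for Htr7, 23.3% for Htr1b and 20.1% for Htr2a. Counting error alone would give 5.41% for Htr1a, 5.63% for Htr7, 3.225% for Htr1b and 3.72% for Htr2a. Genes within 2-fold of each level had median coefficients of 12.4%, 12.7%, 8.72% and 9.45% in the same order of receptors. Htr7 differed 3.18-fold between its highest and lowest mouse, and Htr1a differed 3.08-fold.

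The other receptors varied about as much as genes of like level. The coefficient was 12.9% for Htr4, against a median of 12.8% around its level. It was 10.3% for Htr6 against 11.2%, and 8.71% for Htr1d against 8.74%. Htr2c, at 8.72%, was above the 6.35% of genes near its level.

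**Figure D2:**
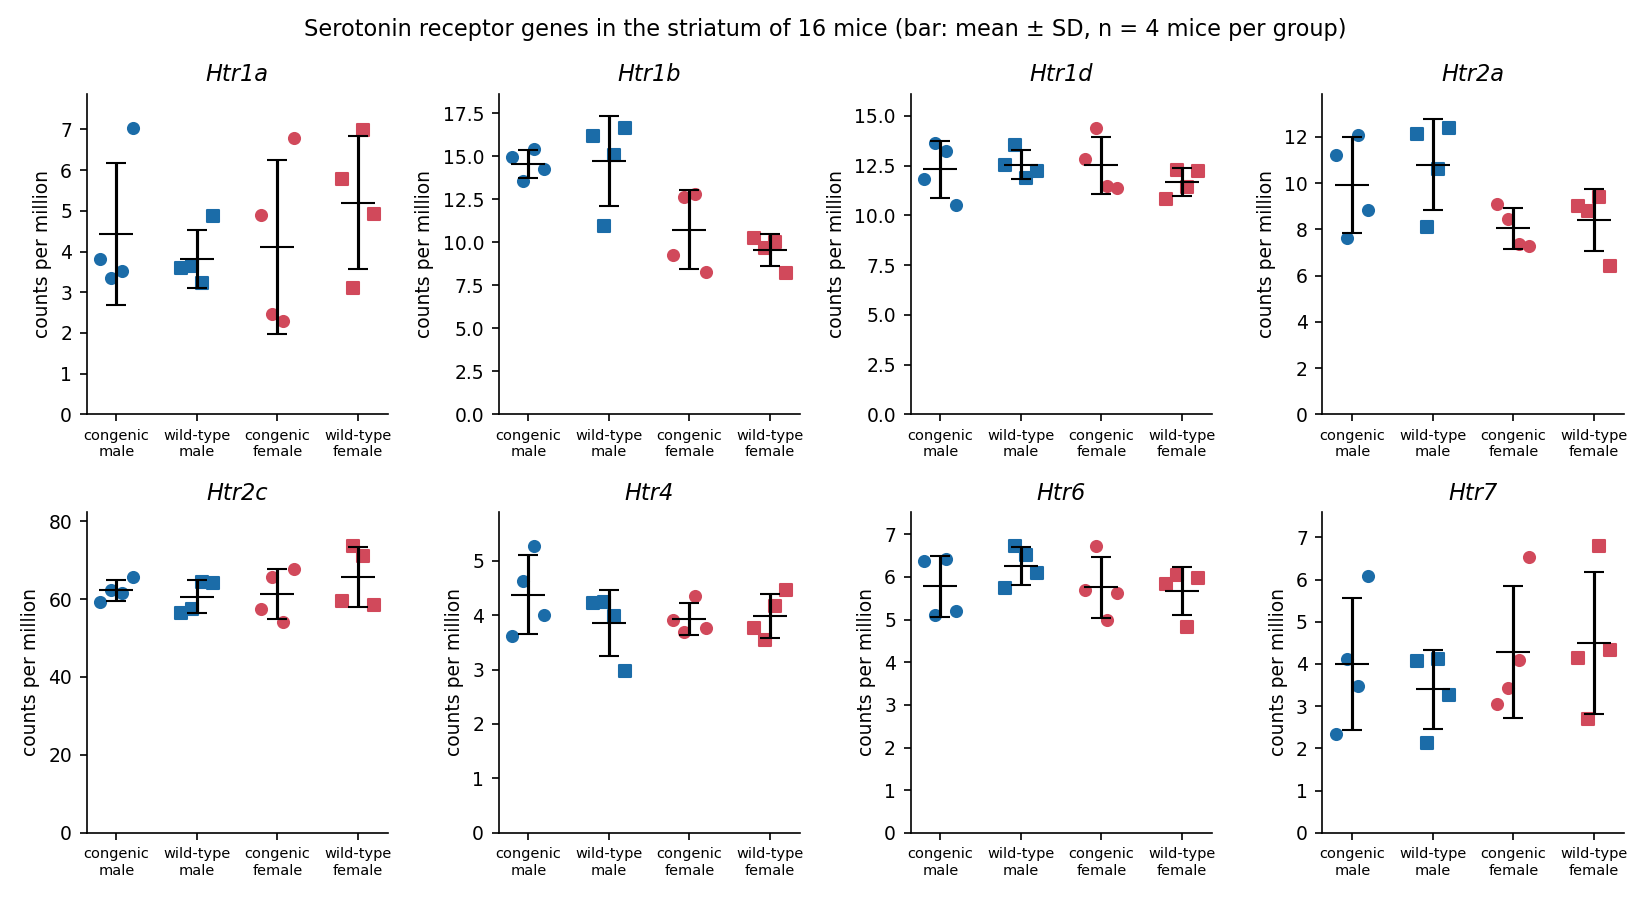
CPM of each receptor gene in every mouse, with 4 mice in each of congenic males, wild-type males, congenic females and wild-type females; bars are means ± SD. Congenic and wild-type mice of a sex overlap in every panel, and male points of Htr1b sit mostly above the female points.

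No receptor gene differed detectably in level between congenic and wild-type mice. None of the 8 passed the test in either direction with edgeR's quasi-likelihood test at a Benjamini-Hochberg adjusted p under 0.05, and none had an unadjusted p under 0.05. Among all genes, 0% of 16716 tested genes were called, and 256 had an unadjusted p under 0.05. DESeq2 and limma-voom called 0 genes as well. The adjusted p was 0.999 for each of the 8 receptors. Their log2 fold changes, congenic over wild-type, were positive in 4 and negative in 4, with a median of 0.00, which was also the median of all genes. Cortical markers had 1 of 10 positive genotype values, none called, and summed to 58.6 to 287 CPM in congenic mice and 95.1 to 262 CPM in wild-type mice. Immediate early genes had 13 of 13 positive genotype values, with a median log2 fold change of 0.13 and none called, and summed to 451 to 1367 CPM in congenic mice and 382 to 1467 CPM in wild-type mice. With their score in the model the Htr1b log2 fold change by genotype was 0.03.

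Among the Gi-coupled receptors, Htr1b, a presynaptic autoreceptor and heteroreceptor, had a lowest, median and highest level of 8.26, 13.2 and 15.4 CPM in congenic mice. In wild-type mice its levels were 8.20, 10.6 and 16.7 CPM. The 2 groups covered almost the same span. The log2 fold change was 0.08 (SE 0.10, 95% interval -0.14 to 0.29). Htr1d, a close relative of Htr1b, had 10.5, 12.3 and 14.4 CPM in congenic mice, against 10.8, 12.2 and 13.6 CPM in wild-type mice. Its log2 fold change was 0.04 (SE 0.07, 95% interval -0.10 to 0.17). Htr1a had 2.29, 3.67 and 7.04 CPM in congenic mice, against 3.10, 4.25 and 6.98 CPM in wild-type mice. The highest mouse of each group was near 7 CPM, and the interval of the Htr1a fold change, -0.59 to 0.46 around -0.07 (SE 0.25), was the widest of the 8.

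The Gq-coupled receptors overlapped between genotypes too. Htr2c, a receptor of many forebrain neurons and of choroid plexus epithelium, had 54.1, 62.0 and 67.7 CPM in congenic mice as lowest, median and highest level, against 56.3, 61.8 and 73.5 CPM in wild-type mice. The medians lay close together, and the log2 fold change of -0.03 (SE 0.06) had the narrowest interval, -0.15 to 0.09. Htr2a, the receptor type through which hallucinogens act, had 7.27, 8.65 and 12.1 CPM in congenic mice, against 6.42, 9.19 and 12.4 CPM in wild-type mice. Its log2 fold change was -0.09 (SE 0.11, 95% interval -0.32 to 0.14).

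The Gs-coupled receptors gave the same picture. Htr6 had 5.00, 5.66 and 6.72 CPM in congenic mice, against 4.83, 6.01 and 6.72 CPM in wild-type mice, a log2 fold change of -0.04 (SE 0.08, 95% interval -0.21 to 0.12). Htr4 had 3.62, 3.96 and 5.26 CPM in congenic mice, against 2.97, 4.08 and 4.45 CPM in wild-type mice. Its log2 fold change was 0.08 (SE 0.09, 95% interval -0.11 to 0.28). Htr7 had 2.35, 3.79 and 6.54 CPM in congenic mice, against 2.14, 4.10 and 6.79 CPM in wild-type mice, a log2 fold change of 0.08 (SE 0.22). Its interval, -0.39 to 0.55, was nearly as wide as that of Htr1a.

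Sex separated the Htr1b levels and no other receptor's at the adjusted threshold. Htr1b had 10.97, 15.02 and 16.7 CPM as lowest, median and highest level in males, and 8.20, 9.86 and 12.8 CPM in females. The groups overlapped in part: 6 of 8 females lay below the lowest male, and 7 of 8 males above the highest female. Means were 14.6 ± 1.78 CPM in males and 10.1 ± 1.75 CPM in females (SD, n = 8 each). The level was 1.47-fold higher in males, a log2 fold change of 0.56 (SE 0.10, 95% interval 0.34 to 0.77), with an adjusted p of 0.0358 by edgeR's quasi-likelihood test. That is 1 of 8 receptors called. Among all genes, 0.138% of 16716 tested genes were called by sex, and 0.0778% of the 16716 were called as higher in males, while 14.7% had an unadjusted p under 0.05.

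In both genotypes the mean Htr1b level was higher in males. Congenic males averaged 14.6 ± 0.810 CPM and congenic females 10.7 ± 2.31 CPM of Htr1b. Wild-type males averaged 14.7 ± 2.59 CPM and wild-type females 9.55 ± 0.930 CPM (SD, n = 4 each). The call rested on all mice together. Leaving out single mice kept it in 5 of 16 cases, with log2 fold changes of 0.51 to 0.61 and adjusted p of 0.00749 to 0.113. Without the wild-type female Sample_4806 the log2 fold change was 0.51 and the adjusted p 0.0925. Without the females Sample_4804 and Sample_4806, which had the lowest Htr1b levels, it was 0.46 with an adjusted p of 0.126.

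Mouse numbers ran with sex: all females except Sample_4676 and Sample_4677 were numbered above all males, so number and sex otherwise cannot be told apart. The levels of Htr1b in these 2 females were 10.3 CPM in Sample_4676 and 9.26 CPM in Sample_4677, below every male. The single annotated exon bin of Htr1b gave 6.32 ± 0.919 CPM in males and 4.54 ± 0.822 CPM in females (SD, n = 8 each). A noncoding gene on the opposite strand, D430036J16Rik, overlaps Htr1b on NCBIM37, and no strand setting is named in the sources used here, so reads of the overlap cannot be told apart. D430036J16Rik itself averaged 9.17 CPM, with a log2 fold change of 0.13 (SE 0.07), male over female, and an adjusted p of 0.381 by edgeR's quasi-likelihood test.

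Htr2a came closest to the threshold after Htr1b. Its levels were 7.62, 10.9 and 12.4 CPM in males as lowest, median and highest, and 6.42, 8.63 and 9.40 CPM in females. Here 5 of 8 males lay above the highest female, and 3 of 8 females below the lowest male. The log2 fold change was 0.36 (SE 0.11, 95% interval 0.13 to 0.59), with an adjusted p of 0.186 by edgeR's quasi-likelihood test, so the difference did not pass. Without Sample_4806, the lowest mouse, the Htr2a log2 fold change was 0.30 with an adjusted p of 0.329. Without Sample_4804 and Sample_4806 it was 0.27 with an adjusted p of 0.616.

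The remaining 6 receptors had sex differences within their spread. Log2 fold changes, male over female, were -0.14 for Htr1a (SE 0.25), 0.07 for Htr1d (SE 0.07) and -0.02 for Htr2c (SE 0.06). They were 0.08 for Htr4 (SE 0.09), 0.10 for Htr6 (SE 0.08) and -0.22 for Htr7 (SE 0.22). Adjusted p by edgeR's quasi-likelihood test lay between 0.551 for Htr6 and 0.892 for Htr2c. Of the 8 receptors, 5 had a positive value, and their median log2 fold change was 0.07, against -0.00 over all genes. Without Sample_4806 these 6 receptors kept their signs, with adjusted p of 0.673 for Htr6 to 0.869 for Htr1a by edgeR's quasi-likelihood test.

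**Figure D3:**
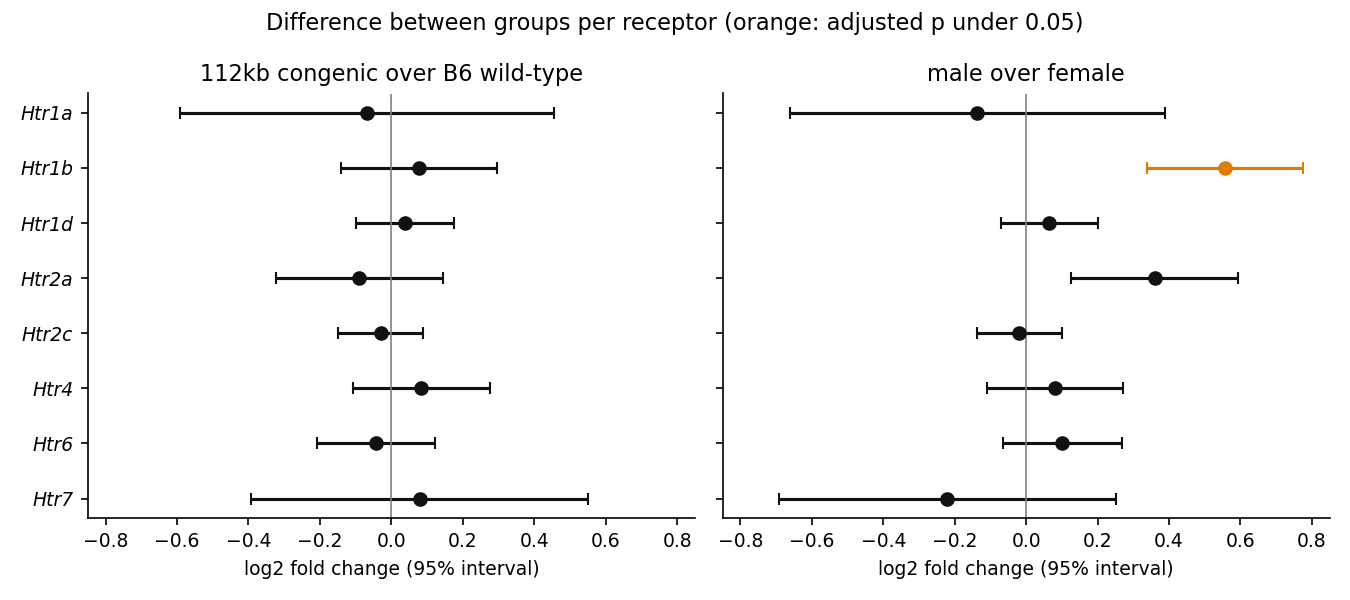
Log2 fold change with its 95% interval for each receptor gene, congenic over wild-type on the left and male over female on the right; orange marks an adjusted p under 0.05. All genotype intervals include 0, and Htr1b is the only orange point, at 0.56 for sex.

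Immediate early genes, which neurons transcribe within minutes of activity, had positive fitted values in males over females beside Htr1b. This held for 13 of 13 listed genes, with a median log2 fold change of 0.67, and none passed the adjusted test. Their summed level was 499 to 1467 CPM in males and 382 to 788 CPM in females. Sample_4806 had the lowest score of this list. Without it the females' sums were 451 to 788 CPM, 13 of 13 values stayed positive and the median was 0.63. Of single genes, Nr4a1 had a log2 fold change of 1.52 (SE 0.35) with an adjusted p of 0.126, and Egr1 0.66 (SE 0.22) with an adjusted p of 0.217, by edgeR's quasi-likelihood test. With the immediate early score of each mouse in the model, the Htr1b log2 fold change by sex was 0.30 with an adjusted p of 0.701, and that of Htr2a 0.13 with an adjusted p of 0.835.

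None of the markers of other tissue was called by sex, though some lists had fitted values of a single sign. Markers of cortical excitatory neurons had 10 of 10 negative values, male over female, with a median log2 fold change of -0.62 and sums of 58.6 to 262 CPM in males and 72.2 to 287 CPM in females. Septal markers had 4 of 4 negative values, with a median of -0.34 and sums of 22.9 to 91.9 CPM in males and 24.0 to 81.3 CPM in females. Choroid plexus markers had 5 of 8 positive values, with sums of 20.3 to 43.0 CPM in males and 17.2 to 29.7 CPM in females. Medium spiny neuron markers had 8 of 8 positive values, with a median of 0.11. Without Sample_4806 the cortical median was -0.62, the septal median -0.32 and the medium spiny neuron median 0.10, and none of the markers was called. With the cortical score in the model, the Htr1b log2 fold change by sex was 0.49 with an adjusted p of 0.199. It was 0.51 with the septal score (adjusted p 0.0501) and 0.53 with the choroid plexus score (adjusted p 0.0597), again by edgeR's quasi-likelihood test.

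Whether the genotype difference itself differed by sex was tested with an interaction term. None of the 8 receptors passed, against 0% of 16716 genes, and 698 genes had an unadjusted p under 0.05. The largest estimate was that of Htr1a, at 0.53 (SE 0.49) on the log2 scale. Congenic over wild-type, the Htr1a log2 fold change was 0.20 (SE 0.35) within males and -0.33 (SE 0.34) within females. For Htr1b it was -0.03 (SE 0.14) within males and 0.19 (SE 0.15) within females, an interaction of -0.22 (SE 0.21). Within males and within females, 0% of genes were called for genotype in each case, and 0 of the 8 receptors.

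Exon use of the receptor genes did not differ detectably by genotype or by sex. The 8 genes have 62 exon bins, of which 37 entered the test, which sets a bin against the others of its gene. None was called for genotype, against 0.000425% of 235478 bins, and 1 had an unadjusted p under 0.05. None was called for sex, against 0.0157% of bins, and 3 had an unadjusted p under 0.05. By gene, with the Simes method, 0.00672% of 14875 genes were called for genotype and 0.128% for sex, none of them a receptor. Htr1a and Htr1b consist of a single bin and have no exon use to test. limma's diffSplice called none of the receptor bins either, and edgeR called none of them by sex without Sample_4806.

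The bin behind the unadjusted genotype value was bin 2 of Htr4, with 9.88 counts on average in congenic mice and 15.1 counts in wild-type mice. Its log2 change relative to the gene was -0.66, with an unadjusted p of 0.0166 and an adjusted p of 1 from edgeR's diffSpliceDGE. For sex, male over female, the log2 change was 0.31 in bin 11 of Htr2c (unadjusted p 0.00344), 0.27 in bin 15 of Htr2c (0.00665) and 0.54 in bin 4 of Htr4 (0.00786). The adjusted p was 1 for each in the same edgeR test.

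The Htr2c exon with the alternative splice site had more counts before its proximal splice site than after it. Bin 15, the 106 bases before that site, held 215 ± 33.96 counts per 100 bases (SD, n = 16). Bin 16, the 95 bases in capitals, held 100 ± 15.7 counts per 100 bases. Other coding bins of Htr2c held 127 (bin 8), 119 (bin 10), 323 (bin 11) and 110 (bin 18) counts per 100 bases. Bin 16 thus lay near bins 8, 10 and 18, and bin 15 lay above them. The count of bin 16 was 42.2 ± 6.26% of that of bin 15, with a range of 31.0 to 53.0%. Congenic mice gave 42.4 ± 4.50% and wild-type mice 42.0 ± 7.97% (SD, n = 8 each). The same share of Htr2c counts was 39.8 ± 6.36% in males and 44.7 ± 5.45% in females. A share of counts is not a share of transcripts here, because reads that span neighbouring bins are counted in each. The annotation assigns bin 16 to the full-length transcripts Htr2c-001 and Htr2c-002. It assigns bin 15 but not bin 16 to Htr2c-003, marked for nonsense-mediated decay, and to Htr2c-006, marked as protein-coding.

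In Htr1d the bin at the downstream start held more counts than the bins found only in transcripts of the upstream start. Bin 6, which begins where the downstream RefSeq start lies, held 65.3 counts on average (range 37 to 96), or 47.0 ± 11.03 per 100 bases. Bins 1 to 4, which make up the first exons from the upstream start, held means of 0.188 to 1.19 counts each. Bin 5, the second exon of Htr1d-002 and Htr1d-004, held 5.19 counts. Bins 1 to 5 together reached 11.9 ± 7.86% of the count of bin 6. Bin 7, shared by the annotated transcripts of both starts, held 56.3 ± 10.3 counts per 100 bases. In the annotation on NCBIM37, bin 6 belongs to Htr1d-003 alone, which is marked as a processed transcript without a coding region.

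Alternative exons of Htr7 and unused exons of Htr2c had few counts. Bin 5 of Htr7, which is annotated in Htr7-006 only, had a mean of 3.19 counts, and its count was 11.4 ± 8.52% of that of bin 4. Bin 11 of Htr7 had a mean of 5.31 counts and bin 10 had 0. In Htr2c, bins 7, 12 and 14, annotated only in transcripts with a retained intron, had means of 5.56, 1.5 and 5.44 counts over 16 mice. Htr6 had 53.2 counts per 100 bases in bin 6, the first exon of the longer transcript, and 41.1 in bin 5. Bin 4, at whose edge the other RefSeq start lies, held 36.1 counts per 100 bases. Both Htr6 transcripts share bin 4, so its counts do not show whether that start was used.

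**Figure D4:**
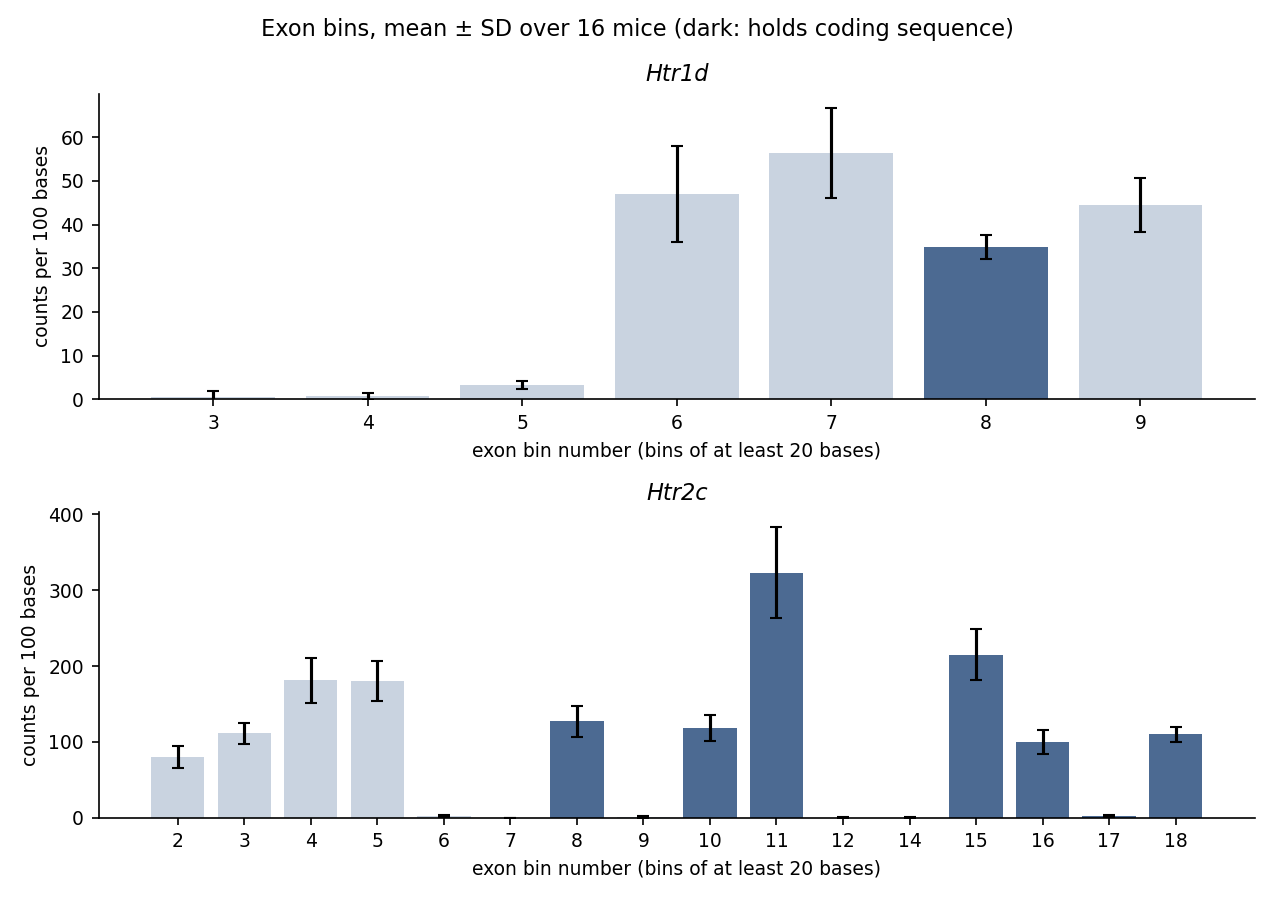
Counts per 100 bases in the exon bins of Htr1d and Htr2c, as means ± SD over 16 mice; dark bars hold coding sequence, and bins under 20 bases are left out. In Htr1d bins 3 to 5 are low beside bin 6, at 47.0, and in Htr2c bin 15 stands at 215 and bin 16 at 100.

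Levels of most receptors followed scores of marker lists over the mice. For each of 10 lists the centred mean log2 CPM was set against the log2 CPM of each receptor, which gave 80 relations over 16 mice. Of these, 22 had an adjusted permutation p of Pearson's r under 0.05, in 7 of the 8 genes, and 9 of the 22 also for Spearman's rho. Htr2c had none. Its r with the choroid plexus score was 0.17 (adjusted permutation p 0.741).

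Htr1b followed the immediate early score most closely, with r = 0.84 (adjusted permutation p 0.004) and rho = 0.89 (0.0024). Without the 2 mice farthest from the median score, r was 0.76. Within males r was 0.83, and within females it was 0.65. Htr2a gave r = 0.70 (adjusted permutation p 0.0194) and rho = 0.64 (0.061) with that score, and r = 0.53 without the 2 farthest mice. Within males the r of Htr2a was 0.69, and within females 0.25. Htr2a also followed the score of GABA interneuron markers, with r = 0.76 (adjusted permutation p 0.0112). By Pearson's r both receptors followed medium spiny neuron scores too, though less closely after genotype and sex were removed. With the score of D1-type markers, Htr1b gave r = 0.70 (adjusted permutation p 0.0194) and rho = 0.72 (0.0281). Within males that r was -0.29, and within females 0.70. With the general medium spiny neuron score the r of Htr1b was 0.69 (adjusted permutation p 0.0194) and rho 0.62 (0.0703). Htr2a gave r = 0.66 (0.0276) and rho = 0.59 (0.0731) with the D1-type score. With the general score its r was 0.64 (0.0342) and rho 0.59 (0.0731). After genotype and sex were removed, r with the D1-type score was 0.32 for Htr1b and 0.43 for Htr2a. With the general score it was 0.47 for Htr1b and 0.44 for Htr2a.

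Htr1a and Htr7 followed markers of tissue that borders the striatum. Htr1a gave r = 0.77 (adjusted permutation p 0.0112) and rho = 0.71 (0.0284) with the septal score, and r = 0.63 without Sample_4733 and Sample_4753. With the thalamic score its r was 0.79 (adjusted permutation p 0.00773). Htr7 gave r = 0.79 (adjusted permutation p 0.00773) and rho = 0.79 (0.0128) with the thalamic score. With the medium spiny neuron score its r was -0.73 (adjusted permutation p 0.0146) and rho -0.65 (0.0535). With the septal score the r of Htr7 was 0.73 (adjusted permutation p 0.0146) and rho 0.54 (0.101). Septum and thalamus are regions that hold Htr1a and Htr7 transcript in rodents, and their part in these levels was not tested.

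Htr1d and Htr6 had negative relations with septal or thalamic scores. Htr1d gave r = -0.70 (adjusted permutation p 0.0194) and rho = -0.70 (0.034) with the thalamic score. With the septal score its r was -0.67 (adjusted permutation p 0.0276) and rho -0.61 (0.0716). Htr6 gave r = -0.67 (adjusted permutation p 0.0276) and rho = -0.66 (0.0507) with the septal score. With the medium spiny neuron score its r was 0.64 (adjusted permutation p 0.0342) and rho 0.79 (0.0128). With the score of cholinergic interneuron markers the r of Htr6 was 0.68 (adjusted permutation p 0.026) and rho 0.73 (0.0217). Htr4 gave r = -0.61 (adjusted permutation p 0.042) and rho = -0.60 (0.0716) with the cortical score, and r = -0.04 (0.982) with the septal score. All scores and receptor levels of a mouse come from the same library.

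**Figure D5:**
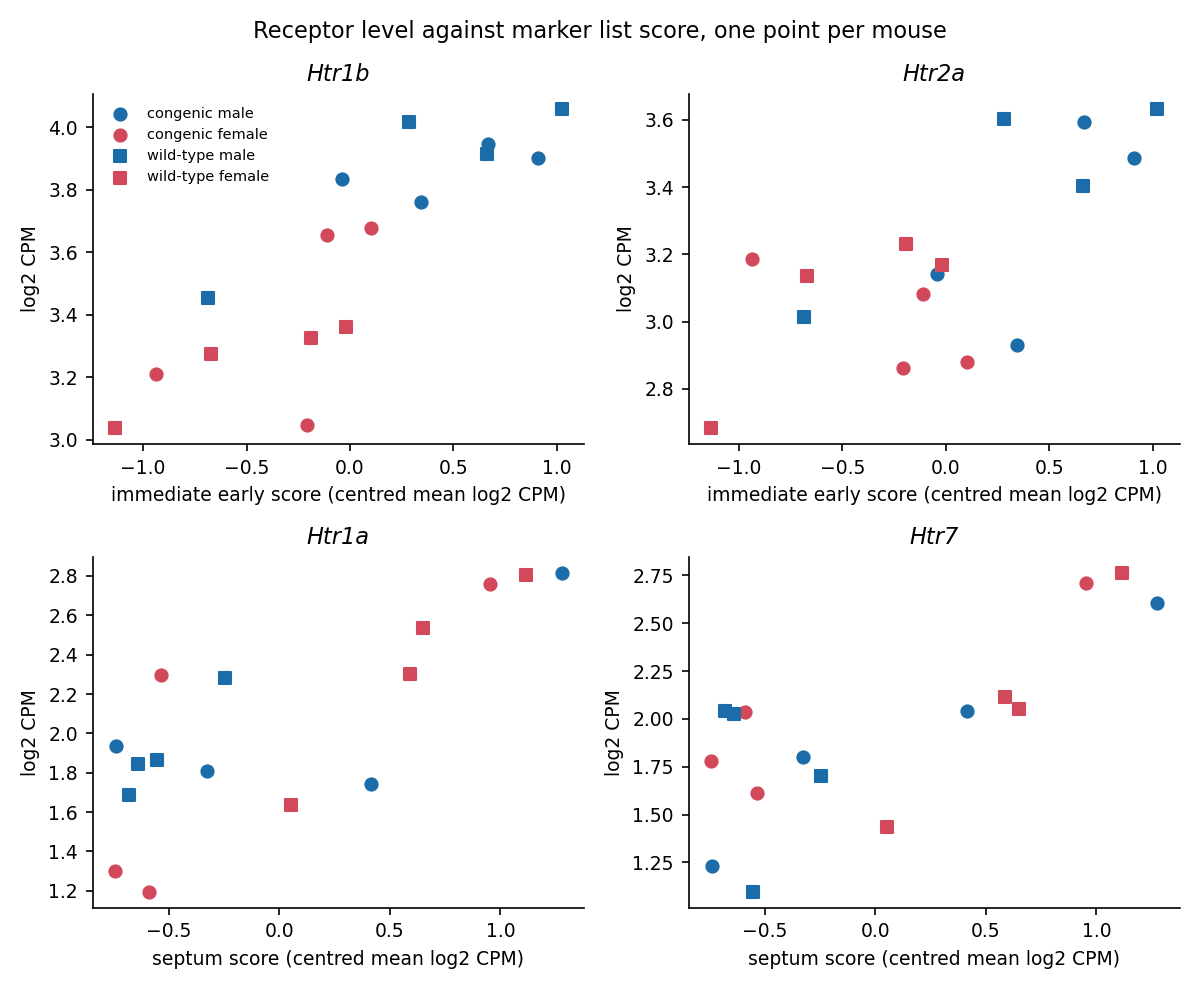
Log2 CPM of a receptor against a list score in CPM on the log2 scale, one point per mouse, with colours for sex and symbols for genotype; the panels show Htr1b and Htr2a against the immediate early score and Htr1a and Htr7 against the septal score. Points rise from left to right in each panel, with r of 0.84, 0.70, 0.77 and 0.73.

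Between the receptors themselves, as a description over 16 mice, Htr1b and Htr2a moved together with r = 0.76, and r = 0.64 after group means were removed. Htr1a and Htr7 moved together with r = 0.54. Htr6 and Htr7 ran opposite to each other with r = -0.72, as did Htr1a and Htr1d with r = -0.66 and Htr1d and Htr7 with r = -0.61. All these levels come from shared libraries.

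The genes most like each receptor were found by Pearson's r of log2 CPM over 16 mice among 14087 genes with a mean of at least 1 CPM. For Htr1b they were Hbegf, an EGF-like growth factor (r = 0.96), Samd4b (0.95) and Spry2, an inhibitor of receptor tyrosine kinase signalling (0.95). For Htr2a they were the protocadherin Pcdh1 (0.94), Rabgef1 (0.92) and the semaphorin Sema3e (0.89). Htr1a was most like Arhgef25 (0.92), the adrenergic receptor Adra2a (0.92) and the calcium channel Cacna1g (0.90). Htr7 was most like the D-aspartate oxidase Ddo (0.93), Ctbp2 (0.92) and Stac (0.89). The closest genes were less alike for Htr6 (Eefsec, 0.90), Htr2c (Lrrn3, 0.84), Htr4 (Parp8, 0.81) and Htr1d (Tmtc1, 0.79).

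Of the other serotonin receptor genes, Htr5a, whose product couples to Gi, had the highest level, with a mean of 10.1 CPM and a range of 8.21 to 12.3 CPM. Htr1f averaged 2.49 CPM and Htr3a, a subunit of the ion channel receptor, 1.71 CPM. Htr5b averaged 0.542 CPM and Htr2b 0.228 CPM. Htr3b averaged 0.0551 CPM and was not tested. None of the 5 tested genes was called for genotype or sex. Htr3a averaged 1.89 ± 0.193 CPM in males and 1.54 ± 0.176 CPM in females (SD, n = 8 each). Its log2 fold change was 0.32 (SE 0.10) with an adjusted p of 0.164 by edgeR's quasi-likelihood test. Without Sample_4806 the Htr3a value was 0.29 with an adjusted p of 0.318.

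Genes that make, move and break down serotonin differed widely in level. The monoamine oxidase genes Maoa and Maob averaged 42.6 and 34.3 CPM, and the transporter gene Slc22a3 averaged 14.6 CPM. Defining genes of serotonin neurons were near 0: the serotonin transporter gene Slc6a4 averaged 0.0211 CPM and the raphe factor Fev 0.00636 CPM. Tph2, the rate-limiting enzyme of serotonin synthesis in neurons, averaged 1.90 CPM, with a range of 0.963 to 2.76 CPM. None of the 8 tested genes of this list was called. Fitted genotype values were positive in 6 of 8 and sex values, male over female, in 1 of 8.

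Genes for G proteins, effectors and partners of the receptors were abundant and did not pass either test. Adcy5, the main adenylyl cyclase of the striatum, averaged 1667 CPM, and Gnal, the olfactory-type Gs subunit of the striatum, 927 CPM. Gnao1 averaged 875 CPM. Of 16 genes tested, 5 had positive genotype values and 12 positive sex values, and none was called. Mpdz, a PDZ scaffold that binds Htr2c, had a log2 fold change of -0.11 (SE 0.05) for genotype with an unadjusted p of 0.0357, and an adjusted p of 0.999 by edgeR's quasi-likelihood test. The ADAR genes, whose enzymes edit Htr2c, averaged 214 CPM for Adar and 184 CPM for Adarb1.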

How the data were processed

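The authors deposited whole-number counts per gene and per exon bin, not normalised, for 48 runs: 16 mice on 3 lanes each. The submitters' processing notes list HTSeq 0.6.1p1, FastQC 0.10.1, limma 3.22.7 and edgeR 3.8.6 without roles. No aligner is named in the sources used here. Per the labels, reads were 50 bp single-end in the design text and 100 bp paired-end in the protocol, so a count is called a count. The labels list mm9 and mm10, and the number of exon bins per receptor gene matched the annotation of NCBIM37 (mm9).

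Counts of the 3 runs of a mouse were summed, so n counts mice. Genes were filtered with edgeR (minimum count 10, minimum total 15), scaled by TMM, and tested with the robust quasi-likelihood test of edgeR 4.0.16 in R 4.3.3, with genotype and sex in the model over all genes, adjusted by Benjamini-Hochberg at 0.05, two-sided. Exon use was tested with edgeR's diffSpliceDGE on all bins. DESeq2 1.42.0 and limma 3.58.1 were alternatives, and each single lane, each mouse left out and marker scores as covariates were tried. Correlations used 100000 permutations in numpy 2.4.6, with p adjusted over 80 relations in scipy 1.17.1. Intervals are at 95%. Levels per kb used exon-bin counts over annotated exon lengths, and gene-table counts over the same lengths were an alternative. Sequences are from RefSeq on GRCm38.p6, and the Htr2c exon is from the NCBIM37 genome.

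The named genes were the 8 receptors, the called genes of the listed pathway genes and up to 4 others per list by level, and the 3 genes most like each receptor. The receptors and the lists were chosen with earlier results of these data known. The naming of Mpdz, Htr2b, Htr3b, Tph2, Slc6a4, Fev, Adar, Adarb1, Nr4a1 and Egr1, the covariates of septal and immediate early scores, and the list values without Sample_4806 were chosen after seeing the data.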

Additional observations from a re-analysis of the deposited data

Results flagged for a closer look

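In groups of 4 to 8 mice, 4 of 64 comparisons of a single mouse with its group stood out by the gap to its nearest neighbour. Chance flags about 1 in 20 groups. Htr7 was 6.79 CPM in the wild-type female Sample_4753, against 2.14 to 4.34 CPM in the other 7 wild-type mice. Htr6 was 4.83 CPM in the same mouse, against 5.84 to 6.04 CPM in the other 3 wild-type females. Htr1a was 7.04 CPM in the congenic male Sample_4733, against 3.224 to 4.86 CPM in the other 7 males. Within congenic males the others lay at 3.35 to 3.83 CPM. Mice Sample_4733 and Sample_4753 were also the 2 farthest from the median septal score, and the part of that tissue in these levels was not tested.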

How the results depend on the processing

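The count of receptors called for genotype was 0 under 30 of 30 alternatives, and that for the interaction under 25 of 25. The count called by sex, 1, was 0 with lane 4 alone, with the choroid plexus, cortical, septal or immediate early score as a covariate, without both Sample_4804 and Sample_4806, and without both females Sample_4676 and Sample_4677, and 0 to 1 with each mouse left out. The Htr1b log2 fold change by sex was 0.55 with lane 4 alone (adjusted p 0.113) and 0.54 without Sample_4676 and Sample_4677 (0.084). DESeq2 gave an adjusted p of 8.49e-05 for it and called 259 genes by sex, against 23 with edgeR; limma-voom gave 0.0361. Of 680 single-gene alternatives, 21 changed sign, none of a called value. For genotype these were Htr1a with the cortical score (0.16), Htr1d with lane 4 (-0.0038), Htr6 with lane 3 (0.017), and Htr7 with lane 5 (-0.016) and without Sample_4804 and Sample_4806 (-0.019). For sex they were Htr1a with the cortical (0.24) and septal (0.10) score, Htr2c with the septal score (0.0012) and Htr4 with the cortical score (-0.023), and for the interaction Htr2a with lane 3 (0.022). With each mouse left out, values that changed sign ranged for genotype from -0.23 to 0.043 for Htr1a, -0.0041 to 0.076 for Htr1d, -0.050 to 0.0068 for Htr2c and -0.055 to 0.22 for Htr7, for sex from -0.047 to 0.016 for Htr2c, and for the interaction from -0.20 to 0.035 for Htr2a. The order of receptor levels kept 7 of 7 neighbouring pairs with coding bins or the longest transcript, and 4 with gene table counts per exon length. The causes of these changes were not tested. At 161 or more counts of each receptor in every mouse, spread between mice limited the genotype test more than counting error. No paired analysis was possible because the groups share no replicate numbers.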
